A study of Papio anubis with 12 samples.

Results

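The miR-17-92 and miR-106b-25 clusters were followed in small RNA libraries of fetal baboon frontal cortex. Their members were taken as the table's entries for 9 hairpin precursors: hsa-mir-17, hsa-mir-18a, hsa-mir-19a, hsa-mir-20a, hsa-mir-19b-1 and hsa-mir-92a-1 of the first cluster, and hsa-mir-106b, hsa-mir-93 and hsa-mir-25 of the second. Each hairpin gave 2 mature miRNAs, one per arm, so there were 18 mature miRNAs among 1921 in the table. The study compared 6 fetuses of nutrient-restricted mothers (MNR), whose ration per kilogram was held at 70% of control intake, with 6 fetuses of control mothers fed freely. All were baboons (Papio anubis) of day 165 of gestation, with 3 females (replicates 1 to 3) and 3 males (replicates 4 to 6) per diet and 1 library per fetus. The samples were whole cortex tissue, so a lower share of one cell type and a lower level per cell cannot be told apart.

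Both clusters are made as one long transcript each, from which the hairpins are cut out, and the loaded strand of each hairpin then represses messenger RNAs that match its seed near the 5′ end. The miR-17-92 transcript is driven by MYC and E2F factors and is known for promoting proliferation and survival; in mouse cortex it expands neural progenitors. The miR-106b-25 hairpins lie in an intron of MCM7, a subunit of the replicative helicase, and in mouse they favour proliferation of adult neural stem cells. By known family, the loaded strands fall into 4 seed groups. miR-17-5p, miR-20a-5p, miR-106b-5p and miR-93-5p form the miR-17 group, which represses the cell cycle inhibitor CDKN1A. miR-18a-5p stands alone, miR-19a-3p and miR-19b-3p form the miR-19 group, and miR-92a-3p and miR-25-3p form the miR-92 group.

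The libraries held 1078720 to 1464660 counted reads in MNR and 513029 to 1898763 in controls, so that 1 read was worth 0.683 to 0.927 RPM (normalised read count, scaled by the authors to one common library total) in MNR and 0.527 to 1.95 RPM in controls. Names with several precursors had their reads counted more than once, and these repeats made up 38.5 to 44.3% of a library. The shallowest library was control replicate 6, and in control replicate 3 a single miRNA, miR-26a-5p, stood at 148140 RPM. The 7 miRNAs listed here as neuronal markers summed to 114472 ± 9398 RPM in MNR and 104772 ± 8488 RPM in controls (SD, n = 6 each). Most of each sum was miR-9-5p, at means of 79544 RPM in MNR and 75172 RPM in controls. Of the 7 differences, 5 were above 0 and 1 was called, that of miR-129-5p. Of all 481 miRNAs averaging 1 RPM or more, 78.4% had a difference above 0 and 2.7% were called. RPM counts reads and is not divided by length, which is nearly equal among mature miRNAs.

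The 2 clusters took a small part of the cortex libraries, and most of it was 1 miRNA. Counting each mature name once, all 18 together held 0.832 ± 0.0673% of mature reads in MNR fetuses, against 0.701 ± 0.126% in control fetuses (SD, n = 6 each). miR-92a-3p (MIMAT0000092), the last hairpin of its transcript, had the highest level of the 18 in all 12 fetuses, at a mean of 2207 ± 475 RPM (SD, n = 12), and ranked 41 by level among the 481 miRNAs that reached a mean of 1 RPM. Next came miR-93-5p (MIMAT0000093) at 660 ± 109 RPM, miR-19b-3p (MIMAT0000074) at 506 ± 99.7 RPM and miR-25-3p (MIMAT0000081) at 485 ± 80.7 RPM. These 3 could not be ordered beyond their spread: miR-93-5p lay above miR-19b-3p in 10 of 12 fetuses and miR-19b-3p above miR-25-3p in 7 of 12. miR-17-5p (MIMAT0000070) and miR-20a-5p (MIMAT0000075) followed at 163 ± 35.4 and 147 ± 26.8 RPM, with miR-17-5p higher in 10 of 12. miR-106b-5p (MIMAT0000680) was at 106 ± 15.0 RPM, miR-19a-3p (MIMAT0000073) at 65.9 ± 12.2 RPM and miR-18a-5p (MIMAT0000072) at 28.8 ± 16.6 RPM. The gap from miR-25-3p down to miR-17-5p (2.98-fold) and that from miR-20a-5p down to miR-106b-5p (1.39-fold) held in 12 of 12 fetuses.

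**Figure D1:**
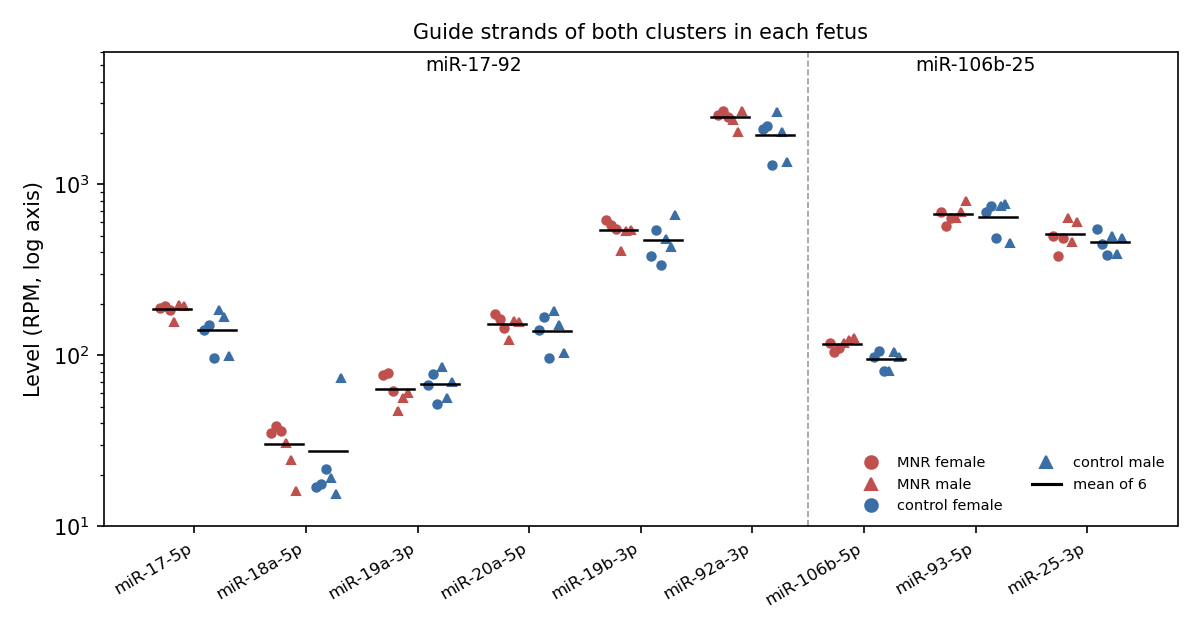
Level of the 9 loaded strands in each fetus, in RPM on a log axis, grouped by cluster, with MNR left of control; each point is 1 fetus and the bar is the mean of 6. miR-92a-3p is the highest in every fetus, and the miR-18a-5p point at 74.1 RPM is control replicate 6.

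Summed by seed group, the miR-92 group led. Its 2 loaded strands summed to 2983 ± 263 RPM in MNR and 2400 ± 545 RPM in controls, and the 4 of the miR-17 group to 1128 ± 96.5 and 1022 ± 211 RPM. The miR-19 group summed to 604 ± 82.8 RPM in MNR and 541 ± 126 RPM in controls (SD, n = 6 per diet). Of the summed loaded strands, the miR-92 group held 62.8 ± 2.69% in MNR and 59.8 ± 3.56% in controls, the miR-17 group 23.8 ± 1.99% and 25.6 ± 2.28%, and the miR-19 group 12.7 ± 1.57% and 13.9 ± 3.99%. By cluster, miR-17-92 summed to 3447 ± 304 RPM in MNR and 2789 ± 588 RPM in controls, and miR-106b-25 to 1299 ± 158 and 1202 ± 165 RPM. Most of the first sum was miR-92a-3p; the other loaded strands that only this cluster encodes (miR-17-5p, miR-18a-5p, miR-19a-3p and miR-20a-5p) summed to 433 ± 43.3 RPM in MNR and 375 ± 68.2 RPM in controls. So, without the shared miR-92a-3p and miR-19b-3p, the sum of miR-17-92 was below that of miR-106b-25.

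Reads of miR-92a-3p and miR-19b-3p cannot be assigned to miR-17-92 alone. Both are also encoded by the paralogous miR-106a-363 cluster of the X chromosome, as mir-92a-2 and mir-19b-2. For miR-19b-3p the entry of mir-19b-2 held 100.2 ± 0.236% of the level of the mir-19b-1 entry in MNR and 100.2 ± 0.352% in controls, so the entries carried nearly the same reads. For miR-92a-3p the entry of mir-92a-2 held 89.3 ± 0.907% of that of mir-92a-1 in MNR and 88.8 ± 0.915% in control fetuses (SD, n = 6 each). Of the strands that only the X-linked cluster encodes, miR-106a-5p and miR-20b-5p were low. miR-363-3p was not: it averaged 114 RPM over the 12 fetuses, where miR-106b-5p of miR-106b-25 averaged 106 RPM. miR-106a-5p, near-identical to miR-17-5p, stood at 7.98 ± 1.53 RPM in MNR and 4.63 ± 2.62 RPM in controls, and miR-20b-5p at 7.78 ± 1.31 and 5.03 ± 3.47 RPM, while miR-363-3p, which has the miR-92 seed, reached 117 ± 32.6 and 111 ± 16.6 RPM.

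The hairpins were far from equal in how much of the second arm was kept. In 7 of the 9 hairpins the more abundant arm had over 95% of reads in the mean of both diets. Over the 12 libraries, miR-92a-3p had 33870 reads against 21 of miR-92a-1-5p, a ratio of 1613, and miR-19b-3p had 7605 against 11 of miR-19b-1-5p. mir-106b was the hairpin with the most even arms. Its 5p arm held 68.7 ± 3.95% of the hairpin's reads in MNR fetuses, against 71.8 ± 4.40% in control fetuses, and its 3p arm, miR-106b-3p (MIMAT0004672), averaged 45.3 RPM over all fetuses, above the loaded strand miR-18a-5p in 11 of 12. In mir-17, the 5p arm held 93.2 ± 2.62% in MNR and 89.0 ± 3.09% in controls. The 2 lowest arms, miR-19a-5p and miR-19b-1-5p, had 10 and 11 reads in all and stayed below 1 RPM on average, so 16 of the 18 miRNAs were tested.

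The ratio of the arms, taken on log2(RPM + 1), was compared between diets for each of 156 hairpins of the table with both arms at a mean of 1 RPM or more. limma called 0 of 156 (0%) at an adjusted p under 0.05, and 0 of the 7 hairpins of these clusters that could be tested; at an unadjusted p under 0.05 it had 24 (15.4%), among them mir-17 as 1 of the 7. The 5p share of mir-17 had a lowest, median and highest value of 89.4, 93.4 and 96.4% in MNR and 83.6, 89.5 and 92.9% in controls. The shares overlapped, with control replicate 6 the lowest of the 12. The log2 ratio of miR-17-5p to miR-17-3p was 0.78 ± 0.28 higher in MNR (SE, n = 6 per diet; limma adjusted p = 0.173). The arm ratios of the other 6 hairpins differed by -0.21 to 0.40, and their lowest adjusted p was 0.622.

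**Figure D2:**
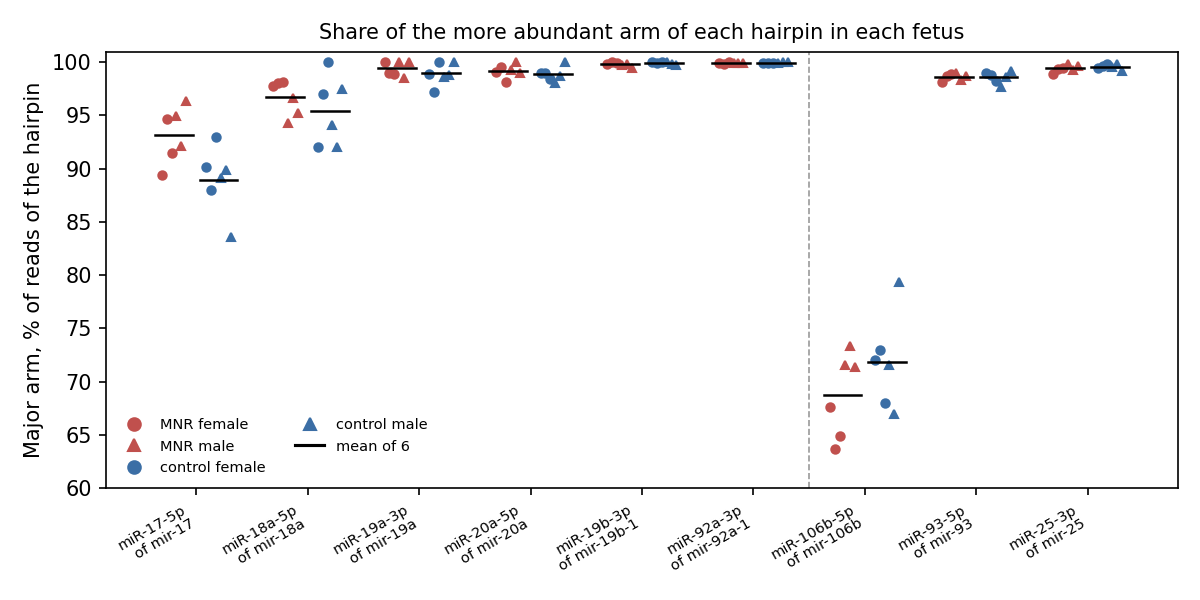
Share of reads of each hairpin held by its more abundant arm in each fetus, in percent on an axis that starts at 60%, with MNR left of control; each point is 1 fetus and the bar is the mean of 6. mir-106b, with means of 68.7% in MNR and 71.8% in controls, stands apart from the other 8 hairpins.

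Hairpins of one transcript are transcribed in equal number, yet their mature levels were unequal. How completely each hairpin is cut out was not measured. Within miR-17-92, miR-92a-3p took 71.7 ± 2.74% of the loaded strands in MNR and 69.0 ± 6.12% in controls, and miR-19b-3p 15.7 ± 1.67% and 17.5 ± 5.51%. Both strands have a second source in the X-linked cluster, so the shares within miR-17-92 cannot be assigned to its transcript alone. miR-18a-5p took 0.877 ± 0.228% in MNR and 1.08 ± 1.03% in controls. Within miR-106b-25, which has no shared strand, miR-93-5p took 51.9 ± 3.04% in MNR and 53.5 ± 6.04% in controls, miR-25-3p 39.1 ± 3.45% and 38.5 ± 5.58%, and miR-106b-5p 9.05 ± 0.615% and 7.96 ± 1.13% (SD, n = 6 per diet). These shares count reads as sequenced; ligation and amplification differ between sequences, and their part in the unequal levels was not tested.

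These proportions were held from fetus to fetus more closely for some strands than for others. The SD over the 12 fetuses of the log2 ratio of 2 loaded strands had a median of 0.38 in the 15 pairs of miR-17-92 and 0.26 in the 3 pairs of miR-106b-25, against 0.51 in all 54285 pairs among miRNAs averaging 10 RPM or more and 0.36 in the 18 pairs that take 1 strand from each cluster. All pairs were not matched to the clusters for level, and lower levels rest on fewer reads. The closest pair of miR-17-92 was miR-17-5p and miR-92a-3p (SD 0.15). The loosest pairs all held miR-18a-5p. Its SD was 0.83 with miR-17-5p, 0.82 with miR-92a-3p, 0.81 with miR-20a-5p, 0.67 with miR-19a-3p and 0.54 with miR-19b-3p. One library stood apart in these ratios. In control replicate 6 miR-18a-5p stood at 74.1 RPM (38 reads), the highest of the 12, and its miR-19b-3p at 665 RPM, also the highest. In the same library miR-17-5p (99.4 RPM), miR-20a-5p (103 RPM) and miR-92a-3p (1359 RPM) were each second lowest of the 12. Without control replicate 6 the median SD was 0.26 in the 15 pairs of miR-17-92, 0.25 in miR-106b-25, 0.29 between the clusters and 0.49 in all pairs. The SD of miR-17-5p with miR-18a-5p was then 0.49, below those of miR-18a-5p with miR-20a-5p (0.55) and with miR-19a-3p (0.54).

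In RPM, control replicates 3 and 6 were the 2 lowest of the 12 for miR-17-5p, miR-20a-5p, miR-92a-3p and miR-93-5p. Under median-ratio scaling they stayed so for miR-17-5p and miR-92a-3p, while MNR replicate 4 was the lowest for miR-20a-5p and lay below control replicate 3 for miR-93-5p. In RPM they were also the 2 lowest for miR-92b-3p, known from neural progenitors in mouse and carrying the miR-92 seed. Replicate 3 held 2547 RPM of it and replicate 6 held 2078 RPM, where the other 10 fetuses held 3139 to 8161 RPM. Control replicate 3 was the deepest of the libraries (1898763 reads) and control replicate 6 the shallowest (513029 reads). The part of progenitor number or of depth in these low values was not tested.

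**Figure D3:**
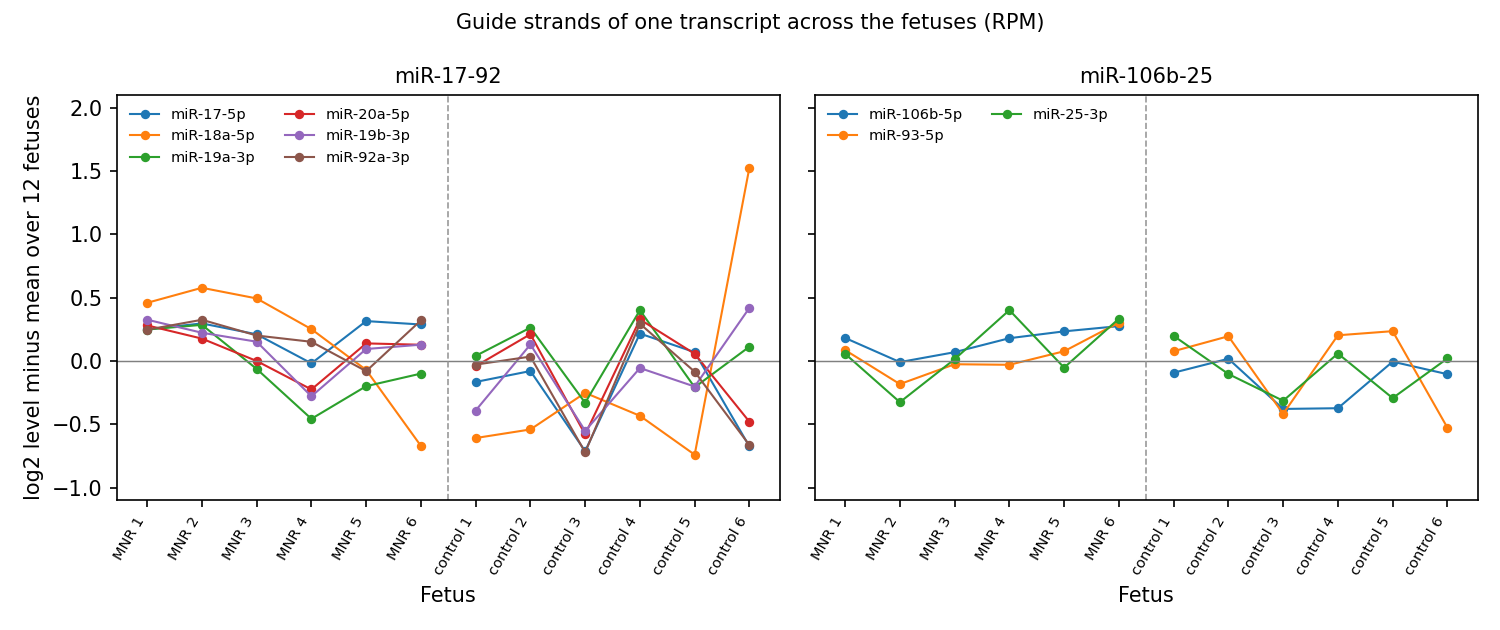
log2 level of each loaded strand minus its own mean over the 12 fetuses (RPM), MNR fetuses left of control fetuses, with 1 panel per cluster; lines join the points of one miRNA and carry no order. In control replicate 6 miR-18a-5p and miR-19b-3p lie above their means, while miR-17-5p, miR-20a-5p and miR-92a-3p lie below.

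Between diets, none of the clusters' miRNAs passed the test. limma on log2(RPM + 1), adjusted over all 481 miRNAs, called 13 of the 481 (2.7%, or 2.49% on the higher side in MNR) and 0 of the 16 measured here; at an unadjusted p under 0.05 it had 105 (21.8%; 19.3% on the higher side) and 4 (25%, all higher in MNR). edgeR, DESeq2 and voom on whole reads also called 0 of the 16, and 2, 9 and 3 of the 481. Each of these tools had 0 of the 16 at an unadjusted p under 0.05, and 65 of the 481 (13.5%). DESeq2 gave no adjusted p for miR-17-3p, miR-18a-5p, miR-18a-3p, miR-20a-3p, miR-25-5p, miR-92a-1-5p and miR-93-3p, so it could not call them. In RPM, 12 of the 16 log2 differences were above 0, against 78.4% of all tested, and their median was 0.19, against 0.23 over all 481. Read against the other miRNAs, 7 of the 16 lay above that common median. Ranges of the 6 and 6 fetuses overlapped for all 16, and were apart for 3.33% of the 481.

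The 4 at an unadjusted p under 0.05 came from both clusters. miR-106b-3p had a lowest, median and highest level of 44.7, 53.9 and 59.5 RPM in MNR and 25.3, 38.0 and 51.5 RPM in controls. Each of the 6 MNR fetuses exceeded the control median, and 3 of them exceeded control replicate 5, the highest control. Its log2 difference was 0.52 ± 0.19 (SE; limma adjusted p = 0.116). miR-17-5p stood at 157, 191 and 197 RPM (lowest, median, highest) in MNR and at 96.9, 146 and 184 RPM in controls, a log2 difference of 0.44 ± 0.17 (SE; limma adjusted p = 0.144). Of the MNR fetuses, 4 lay above the highest control, and replicate 4 was the low one among them. For miR-92a-3p the values were 2036, 2514 and 2697 RPM in MNR and 1306, 2070 and 2639 RPM in controls (log2 difference 0.39 ± 0.17, SE; limma adjusted p = 0.188). Control replicates 3 and 6, at 1306 and 1359 RPM, lay below every other fetus for it. miR-106b-5p was at 104, 119 and 127 RPM in MNR and 80.6, 97.9 and 106 RPM in controls, with 5 of 6 MNR fetuses above the highest control (log2 difference 0.31 ± 0.14, SE; limma adjusted p = 0.215). All 4 differences were smaller under median-ratio scaling, at 0.30 for miR-106b-3p, 0.23 for miR-17-5p, 0.17 for miR-92a-3p and 0.09 for miR-106b-5p. The MNR fetuses above the highest control then numbered 1 for miR-106b-3p, 1 for miR-17-5p, 1 for miR-92a-3p and 2 for miR-106b-5p.

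Of the other loaded strands, miR-19b-3p averaged 540 ± 71.7 RPM in MNR and 473 ± 119 RPM in controls (log2 difference 0.22), and miR-20a-5p 154 ± 17.9 and 140 ± 33.9 RPM (0.17). miR-25-3p averaged 510 ± 93.0 RPM in MNR and 459 ± 64.4 RPM in controls (0.14), and miR-93-5p 672 ± 77.1 and 648 ± 141 RPM (0.08). miR-19a-3p, at 63.8 ± 12.2 RPM in MNR and 68.0 ± 12.8 RPM in controls (SD, n = 6 per diet; -0.09), was the 1 loaded strand with a difference below 0. Their limma adjusted p lay between 0.467 and 0.806. Under median-ratio scaling, which brings the median of all 481 to 0.03, the differences of miR-19b-3p, miR-20a-5p, miR-25-3p, miR-93-5p and the minor arm miR-93-3p lay below 0, and 7 of the 16 differences were above 0. miR-18a-5p had a lowest, median and highest level of 16.2, 33.0 and 38.4 RPM in MNR and 15.4, 18.4 and 74.1 RPM in controls. Apart from control replicate 6, the controls reached 21.6 RPM, which 5 of 6 MNR fetuses exceeded. Its log2 difference was 0.33 ± 0.33 (SE; limma adjusted p = 0.615), and without control replicate 6 it was 0.66 (limma adjusted p = 0.1).

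Of the minor arms tested, miR-17-3p averaged 13.8 ± 5.93 RPM in MNR and 17.3 ± 5.42 RPM in controls (-0.33), against the direction of miR-17-5p, and miR-93-3p 9.50 ± 2.58 and 9.60 ± 4.65 RPM. The log2 difference of miR-93-3p was 0.06, opposite in sign to that of its means. miR-25-5p, miR-20a-3p, miR-92a-1-5p and miR-18a-3p averaged under 3 RPM and had 14 to 35 reads over all fetuses. Their log2 differences of -0.24 to 0.63 had limma adjusted p of 0.307 to 0.97. The authors' deposited table gave unadjusted p-values on RPM of 0.00301 for miR-106b-5p, 0.00502 for miR-106b-3p, 0.0152 for miR-17-5p and 0.0459 for miR-92a-3p, and above 0.05 for the other 14 entries.

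**Figure D4:**
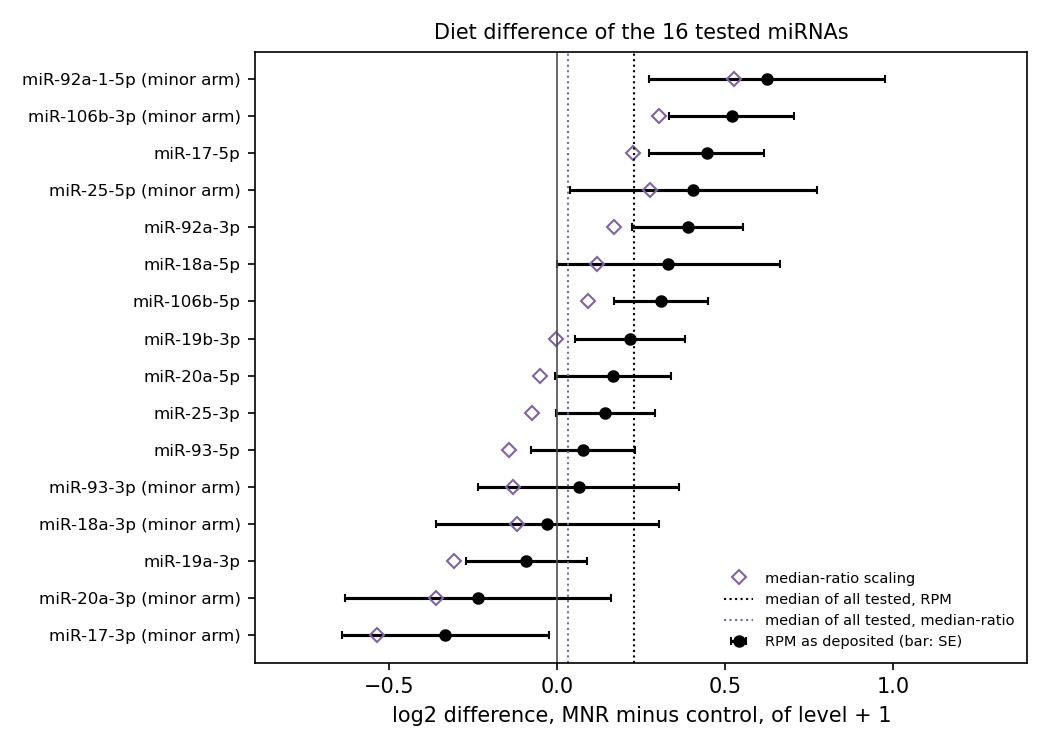
log2 difference (MNR minus control) of the 16 tested miRNAs on log2(level + 1), in RPM as filled points with the SE and under median-ratio scaling as open diamonds; dotted lines mark the median of all 481 tested miRNAs under each scaling (0.23 and 0.03). In RPM 12 of the 16 lie above 0, and under median-ratio scaling 7 do.

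The balance of members within a transcript was also compared between diets. Of the 18 pairs of loaded strands from one transcript, limma called 0 when adjusted over all 54285 pairs, of which it called 0 (0%); 2 of the 18 (11.1%) and 14.6% of all pairs had an unadjusted p under 0.05. In none of the 18 were the diets apart, as they were in 1.38% of all pairs. These 2 were the ratios of miR-17-5p and of miR-92a-3p to miR-19a-3p. The log2 ratio of miR-17-5p to miR-19a-3p averaged 1.55 ± 0.22 in MNR fetuses, against 1.01 ± 0.34 in control fetuses (SD, n = 6 each; limma adjusted p = 0.248). The tightest contrast, picked after its values were seen, was that of miR-17-5p to its seed relative miR-20a-5p. The plain ratio was 1.08, 1.197, 1.27, 1.27, 1.24 and 1.23 in MNR replicates 1 to 6 and 1.01, 0.901, 1.01, 1.02, 1.11 and 0.962 in control replicates 1 to 6. MNR fetuses other than replicate 1 lay above every control. The log2 ratio averaged 0.28 ± 0.09 in MNR fetuses, against -0.00 ± 0.10 in control fetuses (SD, n = 6 each). This difference of 0.28 was not under 0.05 before adjustment (limma unadjusted p = 0.107) or after adjustment over all pairs (limma adjusted p = 0.45). Its SE of 0.16 borrows from the spread of all pairs. The miR-17 family is near-identical in sequence, and how reads matching several members were assigned is not given in the sources used here.

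Females and males were set against each other in a fit of the 4 cells of 3 fetuses. limma called 0 of 481 (0%) for a difference of the diet effect between sexes, and 0 of the 16; at an unadjusted p under 0.05 it had 24 of 481 (4.99%) and 0 of the 16, and edgeR called 0 of the 16, with 1 of the 16 and 28 of the 481 (5.82%) at an unadjusted p under 0.05. Among females, 5 of the 16 had all 3 MNR fetuses above all 3 controls, where 14.8% of the 481 did, and none had them all below, where 1.25% did. These were miR-17-5p, miR-18a-5p, miR-19b-3p, miR-92a-3p and miR-106b-3p; under median-ratio scaling 2 of the 16 were apart, miR-18a-5p and miR-106b-3p. None of the 16 passed in females (lowest limma adjusted p 0.44; 0% of the 481 passed; 3 of the 16 and 10.2% of the 481 had an unadjusted p under 0.05). miR-18a-5p stood at 35.3, 38.4 and 36.2 RPM in MNR females and 16.9, 17.7 and 21.6 RPM in control females, and at 30.6, 24.5 and 16.2 RPM in MNR males and 19.04, 15.4 and 74.1 RPM in control males. The female groups were apart and the male groups overlapped; the diet difference in females minus that in males was 1.22 ± 0.63 on the log2 scale (SE; limma adjusted p = 0.909), and 0.54 without control replicate 6. miR-106b-3p stood at 57.0, 59.5 and 59.4 RPM in MNR females and at 38.1, 39.2 and 37.9 RPM in control females, and at 47.3, 44.7 and 50.9 RPM in MNR males and 32.1, 51.5 and 25.3 RPM in control males. Again only the male groups overlapped, while the test of the difference between sexes gave 0.16 ± 0.38 (SE; limma adjusted p = 0.943). For the female comparison the authors' deposited table gave unadjusted p-values of 0.000475 for miR-18a-5p, 2.43e-05 for miR-106b-3p and 0.0241 for miR-17-5p. For the male comparison it gave 0.0176 for miR-106b-5p and 0.0442 for miR-17-3p. Its other values for these clusters within either sex were above 0.05. Among males, miR-106b-5p was apart on the higher side in MNR (19.3% of the 481) and miR-17-3p on the lower side (4.37%). Under median-ratio scaling the male groups of miR-106b-5p overlapped, and miR-17-3p and miR-19a-3p were apart on the lower side. None passed in males (lowest limma adjusted p 0.276; 1.66% of the 481 passed, and 1 of the 16 and 16.2% of the 481 had an unadjusted p under 0.05).

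A list of 30 mature miRNAs was taken from hairpins that share these seeds or belong to the third cluster. It left out the minor arms of mir-19b-2 and mir-92a-2. Of the 30, 12 had no read and 8 reached the level for a test. None of the 8 passed, 2 had an unadjusted p under 0.05, and 7 had a difference above 0, with a median of 0.28. Over all 481, 21.8% had such a p, 78.4% were above 0 and the median was 0.23. By level the list was led by miR-92b-3p at 5270 ± 1669 RPM in MNR and 4334 ± 1760 RPM in controls (SD, n = 6), above miR-92a-3p. The 2 with an unadjusted p under 0.05 were miR-106a-5p, whose log2 difference was 0.91 ± 0.42 (SE; limma adjusted p = 0.215), and miR-32-3p, the minor arm of its hairpin, at 3.94 ± 1.62 and 1.85 ± 1.34 RPM (0.90, limma adjusted p = 0.185). The embryonic stem cell miRNAs with a related seed, miR-302a to miR-302f, miR-372 and miR-373, had at most 7 reads each over the 12 fetuses.

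Markers of other cell types were read beside these clusters, some of whose members (miR-92a-3p, miR-25-3p, miR-93-5p) are also abundant in human red cells. The 5 erythroid markers summed to 3117 to 5710 RPM in MNR and 2165 to 3920 RPM in controls; all 5 differences were above 0, with a median of 0.64, and miR-451a passed (547 ± 113 RPM in MNR, 244 ± 81.5 RPM in controls; log2 difference 1.202, limma adjusted p = 0.0092). The 7 leukocyte and microglia markers summed to 362 to 921 RPM in MNR and 488 to 554 RPM in controls, with 0 of 6 tested called and all 6 differences above 0. The 2 endothelial markers summed to 4865 to 12097 RPM in MNR and 4651 to 10251 RPM in controls, with 0 of 2 called and 1 difference above 0. Over all 481 miRNAs, 78.4% of differences were above 0, with a median of 0.23, and 2.7% were called. Each marker had a read in at least 1 fetus, and the part of blood or of other cells in the values of the clusters was not tested.

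The miRNAs whose level followed the clusters most closely were found by the SD over the 12 fetuses of the log2 ratio to the cluster's summed loaded strands. For miR-17-92 they were miR-361-5p, miR-30d-3p, miR-181a-5p, miR-181d and miR-550a-5p (SD 0.178 to 0.184, median over 457 miRNAs 0.499). That cluster's sum was mostly miR-92a-3p (71.7% in MNR and 69.0% in controls), which has a second source. For miR-106b-25 they were miR-21-5p, miR-125b-1-3p, miR-103a-3p, miR-30e-5p and miR-30d-5p (SD 0.126 to 0.155, median 0.463). All values of one library share its depth and its total, which also bears on this measure.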

How the data were processed

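RNA of 12 fetal frontal cortices was extracted with a column kit and small RNA fractions went into Illumina libraries, per the labels' protocols. Entries pair human mature names with precursors. The submitters' processing notes list hg18 without a role, and no aligner or counter is given. Per the file headers, the authors deposited RPM for each fetus. The authors also deposited unadjusted p-values and a pooled read count per entry, which served only to choose entries. Dividing RPM by its smallest step gave whole reads for 100% of values (within 0.0051 RPM). Names with several precursors repeat their reads (38.5 to 44.3% of a library); 1 entry per name was kept, that of a member precursor or otherwise the one with most reads.

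limma 3.58.1 (trend) used log2(RPM + 1) for 481 miRNAs averaging 1 RPM or more, with Benjamini-Hochberg adjustment and a threshold of 0.05; this scale understates changes of low miRNAs. Sex by diet cells were fitted likewise. Arm ratios and pair ratios were fitted with limma without the trend, pair ratios among miRNAs averaging 10 RPM or more. edgeR 4.0.16, DESeq2 1.42.0 and voom on whole reads, other scalings, pseudocounts, filters and left-out fetuses were alternatives. Scripts were tested on simulated data. Members, lists and tests were chosen with earlier results of these data known, and pair ratios, their spread without control replicate 6 and overlaps under median-ratio scaling were added after values were seen. Named are all members, listed relatives, the 5 miRNAs per cluster that followed it most closely, and the hairpin with the smallest p. The labels name no mother, batch or date, so p-values measure only the spread between these fetuses. Reads carry no molecular identifiers.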

Additional observations from a re-analysis of the deposited data

Results flagged for a closer look

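Of 32 groups of 6 fetuses examined (16 miRNAs in each diet), 3 held a fetus far from the other 5 by Dixon's ratio of its gap to the group's range; chance gives such a fetus in about 1 in 20 groups. miR-18a-5p stood at 74.07 RPM (38 reads) in control replicate 6, where the next control held 21.59 RPM. miR-17-5p stood at 156.67 RPM in MNR replicate 4, the lowest MNR fetus, where the next held 183.66 RPM. miR-18a-3p stood at 1.85 RPM in MNR replicate 4, where the next MNR fetus held 0.84 RPM; these are 2 reads and 1 read.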

How the results depend on the processing

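The count of miRNAs called between diets was 0 under all 24 alternatives, as were those for the sex difference (20 alternatives) and the arm ratios (16). DESeq2 gave an adjusted p for only some of the 16 miRNAs, so its count covers only those. The lowest adjusted p between diets was 0.086, for miR-106b-3p with a filter of 10 RPM. Over the 24, the log2 difference of miR-17-5p was at lowest 0.20, of miR-92a-3p 0.14, of miR-106b-5p 0.08 and of miR-106b-3p 0.25, each with DESeq2, against 0.44, 0.39, 0.31 and 0.52 in RPM. Calls among all 481 miRNAs, 13 in RPM, moved more: 3 with median-ratio scaling, 3 with TMM, 2 with edgeR, 9 with DESeq2, 3 with voom, 7 with sex as a term, 1 with a pseudocount of 5, and 1 to 26 when 1 fetus was left out. The median of all 481 differences was 0.23 in RPM, 0.03 with median-ratio scaling and 0.06 with TMM, and 5 differences of the clusters turned sign. In the order median-ratio, TMM, edgeR, DESeq2 and voom, miR-20a-5p was at -0.0529, -0.0247, -0.0431, -0.0712 and -0.0412. In that order miR-25-3p was at -0.0769, -0.0485, -0.0407, -0.0702 and -0.0465, and miR-93-5p at -0.144, -0.115, -0.139, -0.166 and -0.127. miR-93-3p was at -0.133, -0.108, -0.223, -0.251 and -0.194. miR-19b-3p was at -0.00465 with median-ratio scaling and -0.0093 with DESeq2. miR-18a-3p was at 0.00663 with a pseudocount of 0.5. Leaving out 1 fetus at a time gave -0.225 to 0.087 for miR-18a-3p, -0.0208 to 0.131 for miR-93-5p, -0.136 to 0.253 for miR-93-3p, and -0.12 to 0.377 for the female minus male difference of miR-106b-3p; the ends at control replicate 6 were 0.087, -0.0208, -0.136 and 0.377, and control replicate 5 gave -0.12. The cause of these turns was not tested beyond the scaling shift. No paired analysis was possible because the replicate numbers follow record order and pair no fetuses. With 1 read worth up to 1.95 RPM, arms under 3 RPM rest on 14 to 35 reads in all.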
